A study of Mus musculus with 24 samples.

Results

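Activated conventional CD4+ T cells that carried NZB mitochondrial DNA (mtDNA NZB) were compared with activated cells that carried C57BL/6J mitochondrial DNA (mtDNA B6). All libraries of activated conventional T cells entered, which gave 6 mtDNA NZB and 6 mtDNA B6 libraries, 12 of the 24 in the series. The other 12 libraries were resting cells of the same haplotypes. The mice were conplastic, that is, both lines carried the C57BL/6J nuclear genome and differed in the maternally inherited mitochondrial genome. The labels gave the genotype as NZB or WT, the cells as TE and the state as ACT or RES, and did not give the age or sex of the mice, while the methods name young adult males for most experiments. Per the study's methods, conventional cells were CD4+ CD25- splenocytes taken by magnetic sorting, and activated cells had been cultured with beads that carry antibodies to CD3ε and CD28. Both haplotypes had received the same activation, and each library was made from 30 ng of RNA per the labels. Nothing in the labels said that the replicates came from separate mice, so the p-values measure the spread between these libraries. Each result was also computed from 11 libraries, without mtDNA NZB replicate 6, whose overall profile was nearest to an mtDNA B6 library. Replicates 3 and 4 of mtDNA NZB were also nearest to an mtDNA B6 library and were kept.

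Mitochondrial DNA encodes a small set of subunits of the respiratory chain and ATP synthase together with the ribosomal and transfer RNAs of the organelle. All other mitochondrial proteins, including most subunits of complexes I to V, the mitochondrial ribosome and the import machinery, are made from nuclear genes, which were the same in both lines. A CD4+ T cell that is activated through its receptor and CD28 leaves quiescence, raises glycolysis, nucleotide synthesis and mitochondrial translation, divides and begins to make cytokines.

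RNA was measured by 3′ bulk MARS-seq, in which each molecule carries a unique molecular identifier (UMI) and is counted once. The activated libraries held 641467 to 6449395 UMI counts, with mtDNA NZB replicate 1 the smallest and replicate 6 the largest, and 12312 to 17053 genes with a count. The mtDNA B6 libraries lay between 2430562 and 4452880. The libraries also fell into 3 ranges of sequenced reads per UMI. The lowest range, 1.88 to 1.96, held 5 mtDNA B6 libraries and mtDNA NZB replicates 5 and 6, and the highest held no activated mtDNA B6 library, so haplotype and this range were not fully separable. Within the lowest range alone, edgeR's quasi-likelihood test called 1 gene, and with the range as a term in the fit it called 0.

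T cell transcripts were high in all 12 libraries, and transcripts of B cells were also present. Levels are given as CPM, counts scaled to the library size with the trimmed mean of M values over the genes tested, and compare one gene or one list between libraries. The 14 T cell identity markers (Cd3g, Cd247, Lck, Cd4 and others) summed to 10106 to 11559 CPM in mtDNA B6 and 9908 to 12969 CPM in mtDNA NZB. The 12 activation markers summed to 1094 to 1334 CPM and 1132 to 1551 CPM. The 14 B cell markers summed to 7157 to 15544 CPM in mtDNA B6 and 2281 to 15866 CPM in mtDNA NZB. Replicates 1, 2 and 5 of mtDNA NZB were below every mtDNA B6 library for that sum, at 2765, 2281 and 4645 CPM, and replicates 3, 4 and 6 were between 11353 and 15866 CPM. The CD8 T cell markers had a like pattern, at 125 to 165 CPM in replicates 1, 2 and 5 and 289 to 658 CPM in replicates 3, 4 and 6, against 233 to 559 CPM in mtDNA B6. Regulatory T cell markers ran from 859 to 1119 CPM and from 867 to 1356 CPM. Most of this sum was Izumo1r, at means of 426 and 444 CPM, and Capg, at 512 and 604 CPM. The defining gene Foxp3 was at 7.60 to 18.8 CPM in mtDNA B6 and 9.63 to 39.3 CPM in mtDNA NZB. Natural killer cell markers were low at 9.59 to 52.7 CPM in all 12 libraries, with Klra4 and Klra8 at 0. Monocyte and macrophage markers summed to at most 217 CPM, with Fcgr1 and C1qa at 0, and dendritic cell markers to 80.4 to 158 CPM, with Xcr1 at 0. Most of the dendritic sum was Bst2, at means of 102 CPM in mtDNA B6 and 107 CPM in mtDNA NZB. Granulocyte markers ran from 11.4 to 218 CPM, erythroid markers from 46.7 to 410 CPM and platelet markers from 222 to 773 CPM, and these groups overlapped. Within the platelet sum, Itgb3 had means of 230 CPM in mtDNA B6 and 203 CPM in mtDNA NZB. The 9 granulocyte genes tested with 11 libraries had a median log2 difference, mtDNA NZB minus mtDNA B6, of 1.65. At an unadjusted p under 0.05, 4 were higher and 1 lower, beside 10.3% of all genes in either direction. With 12 libraries the median was 0.26 over 5 genes. The filter asked for counts in as many libraries as the smaller group held, which with 11 libraries was mtDNA NZB. Genes high in mtDNA NZB could then enter largely through that group. These medians therefore cover different genes, and neither the rise nor the count of higher genes is evidence of a difference. Erythroid and platelet medians were -0.75 over 6 genes and -0.56 over 5 with 12 libraries, and -1.11 and -0.95 with 11. The highest sums of both were in mtDNA B6 replicate 1, at 410 and 773 CPM. The other mtDNA B6 libraries reached at most 133 and 467 CPM. In bulk RNA, fewer cells of a type and less RNA per cell cannot be told apart.

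After activation, correlations between the 2 haplotypes had a median below that within mtDNA B6 and above that within mtDNA NZB. Pearson correlations of log2 CPM over 9728 genes ran from 0.957 to 0.981 within mtDNA B6 (median 0.974), from 0.906 to 0.977 within mtDNA NZB (median 0.953) and from 0.905 to 0.983 between haplotypes (median 0.967). These are descriptions over genes that all libraries share. The highest of all these correlations was between haplotypes, mtDNA NZB replicate 6 with mtDNA B6 replicate 2, at 0.983. For mtDNA NZB replicates 3, 4 and 6 the nearest library was an mtDNA B6 library. Without replicate 6 the between-haplotype range was 0.905 to 0.977, with a median of 0.964. The first principal component held 37.4% of the variance and placed mtDNA NZB replicates 1, 2 and 5 at -57.2, -29.2 and -20.5. Replicates 3, 4 and 6 scored 12.4, 10.9 and 25.02 on it, inside the mtDNA B6 range of -1.44 to 24.5 or just above it. The spread within the haplotypes was unequal. The median SD of log2 CPM per gene was 0.22 in mtDNA B6 and 0.30 in mtDNA NZB, and the mtDNA NZB value was the larger for 74.4% of genes, or 70.5% without replicate 6.

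**Figure D1:**
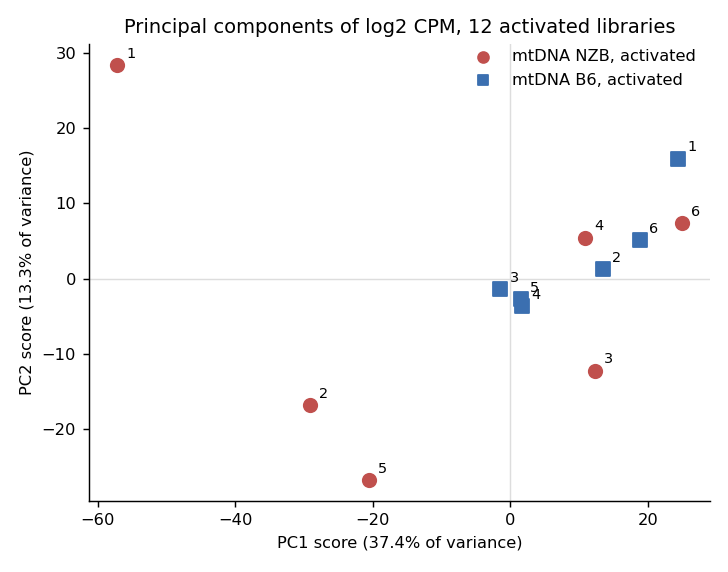
Scores of the 12 activated libraries on the first 2 principal components of log2 CPM, which held 37.4% and 13.3% of the variance; each point is a library with its replicate number, coloured by haplotype. Replicates 1, 2 and 5 of mtDNA NZB stand to the left, and replicates 3, 4 and 6 lie among or beside the mtDNA B6 libraries.

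No gene differed between the haplotypes at an adjusted p of 0.05. Of 9728 genes tested in 12 libraries, 0 were called (0%), and the smallest adjusted p was 0.813 (edgeR quasi-likelihood test, Benjamini-Hochberg adjustment over all genes tested). DESeq2 called 0 genes and limma voom with quality weights called 1. At an unadjusted p under 0.05, 162 genes were higher in mtDNA NZB (1.67%) and 178 were lower (1.83%), together 340 (3.5%). A uniform spread of p-values would give 486.4. With library totals alone as the scaling, 96 were higher and 215 lower, and the median of all genes was -0.04 in place of -0.01. In the 11 libraries 0 of 9760 genes were called (0%), the smallest adjusted p by the same test was 0.231, and DESeq2 called 1 gene and voom 0. At an unadjusted p under 0.05 there were then 560 higher genes (5.74%) and 443 lower genes (4.54%), together 1003 (10.3%), against 488.0 for a uniform spread, and 281 and 685 with library totals alone. Leaving out a library because it lay nearest to the other haplotype can by itself raise this count, which was 340 with it kept. The 1003 are therefore not read as an excess of differences. Every mtDNA NZB library lay above every mtDNA B6 library for 2 genes (0.0206%) and below for 5 (0.0514%). Among 9728 genes some would be separated this way by labels alone, so a lack of overlap in a single gene is no evidence of a difference. These were Sirt5 and Tmem19 above, and Abcc1, Srp19, Ripk2, Morn2 and Xpo6 below, and those of them outside the list of smallest p-values were named after their values were seen. Without replicate 6 the counts were 45 above (0.461%) and 40 below (0.41%).

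The fitted differences were small and their limits could be stated for most genes. On the log2 scale, as mtDNA NZB minus mtDNA B6, the median absolute difference was 0.11, which is 1.08-fold, and 95% of genes lay within 0.45, which is 1.36-fold. A difference of at least 2-fold was fitted for 41 genes (0.421%), 8 higher and 33 lower. The 95% interval of the difference lay wholly within 2-fold for 8871 genes (91.2%) and wholly within 1.5-fold for 6401 genes (65.8%). The median absolute difference was 0.22 with DESeq2. For 2 genes, mt-Nd4 and Gm6136, the interval lay wholly beyond 2-fold. Without replicate 6 the median absolute difference was 0.15, or 1.11-fold, 97 genes (0.994%) had a fitted difference of at least 2-fold, and the interval lay within 2-fold for 8473 genes (86.8%) and within 1.5-fold for 5729 genes (58.7%).

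The share within 2-fold was 40.4% with DESeq2 and 42.1% with no filter, both over 22102 genes, and 52.4% with each library thinned to the smallest total. The limits followed the level of the gene. Of 2171 genes under 10 CPM, 73.2% had an interval within 2-fold and 15.3% within 1.5-fold. Of 3007 genes between 30 and 100 CPM, the shares were 97.2% and 87.8%. Of 517 genes at 300 CPM or more they were 97.9% and 92.6%, and the median interval reached 0.22 to either side of the difference on the log2 scale. A difference of 2-fold was therefore outside the interval for nearly all well measured genes, while among genes under 10 CPM a difference of 1.5-fold was inside the interval for most. The haplotype difference after activation can be set beside others from one fit of all 24 libraries and 10566 genes, which share samples. Its median absolute log2 difference was 0.12 there, that of the haplotypes at rest was 0.21, and that of activated against resting cells was 0.42 in mtDNA B6 and 0.53 in mtDNA NZB. The share of genes with at least a 2-fold fitted difference was 1.10%, 3.07%, 18.1% and 24.02% in the same order. Reads per UMI were not balanced in any of these contrasts. The lowest range held 5 activated and 0 resting mtDNA B6 libraries, and 2 activated and 1 resting mtDNA NZB libraries. The part of this in the sizes was not tested. The resting mtDNA NZB group held a library of low depth, and in a fit of 21 libraries without it and without both libraries numbered 6 of mtDNA NZB the medians were 0.17, 0.22, 0.42 and 0.56.

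**Figure D2:**
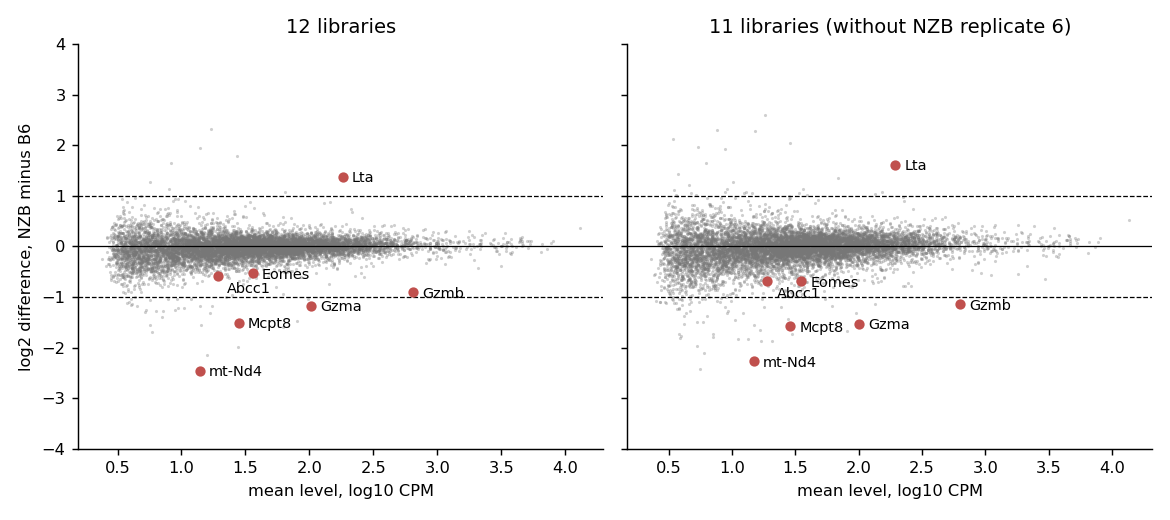
Log2 difference of each gene tested, mtDNA NZB minus mtDNA B6, against its mean level in log10 CPM, for 12 libraries on the left and for 11 libraries on the right; dashed lines mark 2-fold and named genes are in red. Most points lie near 0, with a median absolute difference of 0.11 and 0.15, and mt-Nd4 is the farthest below 0 in the left panel at -2.46.

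Few counts fell in the mitochondrial genome itself, 163 to 457 in its genes per activated library, or 0.00487% to 0.0260% of all counts. Of its 15 listed genes, 5 passed the filter on low counts. The genes mt-Co2, mt-Co3, mt-Atp6, mt-Atp8, mt-Nd3 and mt-Nd4l had 0 counts in all 12 libraries, and mt-Co1 had 14 in total. Whole genes were thus missing from the counts, and the cause was not tested. The gene mt-Nd4 (chromosome M, 10167 to 11544, plus strand, GRCm39), which encodes the ND4 subunit of complex I, had 77, 54, 55, 95, 82 and 69 counts in mtDNA B6 replicates 1 to 6. It had 17, 7, 7, 11, 4 and 16 counts in mtDNA NZB replicates 1 to 6. In CPM it ran from 17.4 to 28.8 with a median of 20.9 in mtDNA B6, and from 1.24 to 25.4 with a median of 2.40 in mtDNA NZB. Only replicate 1 of mtDNA NZB, the library with the lowest total, reached the mtDNA B6 range, and the next highest was at 5.08 CPM. The log2 difference was -2.46 ± 0.47 (SE), with a 95% interval from -3.45 to -1.47, and adjusted p = 0.813. Without replicate 6 it was -2.27 ± 0.49, with adjusted p = 0.39 (both edgeR quasi-likelihood test). The call depended on the setting. The adjusted p was 0.0485 with voom quality weights, 0.00683 with no filter on low counts, 0.0165 within the lowest range of reads per UMI and 7.77e-05 without mtDNA NZB replicate 1.

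The share of mt-Nd4 among the mitochondrial counts does not use the library total. It is a share of the mitochondrial genes that were counted, mostly mt-Cytb, mt-Rnr2 and mt-Nd4, and not of all mitochondrial transcripts. As a share of all counts in mtDNA-encoded genes, mt-Nd4 made up 17.9% to 31.0% in activated mtDNA B6 (median 22.2%) and 2.35% to 10.2% in activated mtDNA NZB (median 4.10%), and the groups did not overlap. The highest mtDNA NZB share, in replicate 1, rested on 17 of 167 counts, with a 95% binomial interval of 6.04% to 15.8% (Clopper-Pearson, counting error only). The lowest mtDNA B6 share, in replicate 5, had an interval of 14.5% to 21.8%. Resting cells had a median share of 19.7% in mtDNA B6 (17.1% to 24.2%) and 5.71% in mtDNA NZB (3.51% to 12.3%). The highest resting mtDNA NZB share was in replicate 2, a library of 51409 UMI counts with 1.36% of them in mtDNA-encoded genes. The next highest was 6.37%, in resting replicate 5. The resting difference had p = 0.00216 in a two-sided exact permutation test over 12 libraries, the smallest p this design can give. The test was chosen with these values known. Groups of this size that do not overlap always give this p, so the test adds nothing to the ranges. The labels give several resting and activated libraries the same number, so some may come from the same mice. Reads of both haplotypes had been aligned to the C57BL/6J mitochondrial sequence of GRCm39, and the part of this in the mt-Nd4 value was not tested.

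**Figure D3:**
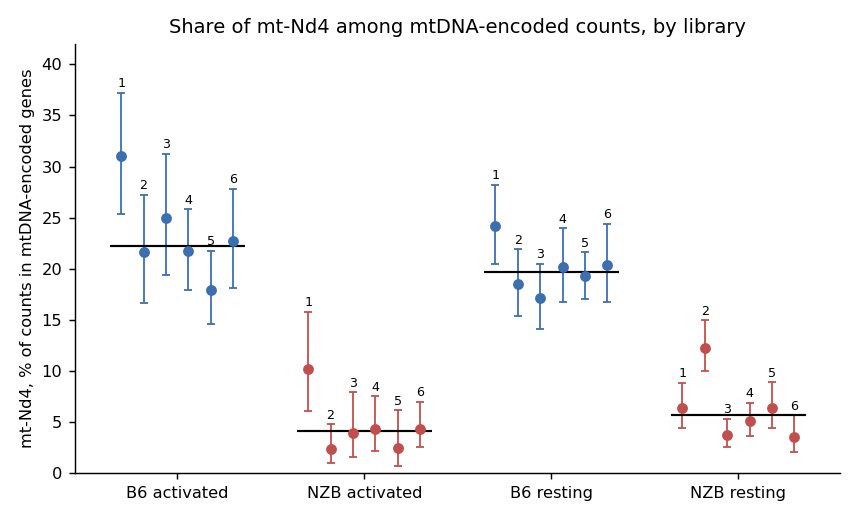
Counts of mt-Nd4 as a percentage of the counts in all mtDNA-encoded genes, 1 point per library with its 95% Clopper-Pearson interval, for activated and resting libraries of both haplotypes, with a line at each median. The mtDNA B6 libraries lie between 17.1% and 31.0% and the mtDNA NZB libraries between 2.35% and 12.3%, with no overlap in either state.

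The other 4 mitochondrial genes tested overlapped between the haplotypes. Cytochrome b, mt-Cytb, had the highest level, at 18.5 to 54.9 CPM in mtDNA B6 and 30.9 to 97.2 CPM in mtDNA NZB, and a log2 difference of 0.46 ± 0.31. The ribosomal RNAs mt-Rnr2 and mt-Rnr1 differed by -0.15 ± 0.39 and 0.20 ± 0.40, and mt-Nd1, another complex I subunit, by 0.39 ± 0.45. For mt-Cytb, mt-Rnr1, mt-Rnr2 and mt-Nd1 the highest library was in each case mtDNA NZB replicate 1, and 0 of the 4 had an unadjusted p under 0.05. The upper ends of the 95% intervals were 1.12, 1.06 and 1.33 on the log2 scale for mt-Cytb, mt-Rnr1 and mt-Nd1, past 2-fold. For mt-Rnr2 the interval of -0.99 to 0.68 lay within 2-fold.

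Among nuclear genes, those with the smallest unadjusted p lower in mtDNA NZB were led by Abcc1, the transporter MRP1 that exports glutathione conjugates and leukotriene C4 (chromosome 16, 14179311 to 14293601). It ran from 19.96 to 29.9 CPM in mtDNA B6 and from 10.5 to 19.9 CPM in mtDNA NZB, and these ranges did not overlap. Its log2 difference was -0.59 ± 0.16 (95% interval -0.93 to -0.26), and -0.69 ± 0.16 with adjusted p = 0.39 without replicate 6 (edgeR quasi-likelihood test). Srp19, a protein of the signal recognition particle, ran from 306 to 373 CPM and from 203 to 300 CPM, again without overlap, with a difference of -0.32 ± 0.09. Eomes, the T-box factor of effector and memory CD8 T cells, ran from 36.1 to 49.6 CPM in mtDNA B6. It ran from 22.6 to 42.9 CPM in mtDNA NZB, where all libraries lay below the mtDNA B6 median of 43.0 CPM and replicate 6 was the highest. The difference of Eomes was -0.53 ± 0.17 (95% interval -0.88 to -0.18), and -0.69 ± 0.14 without replicate 6. The basophil protease gene Mcpt8 ran from 7.28 to 101 CPM and from 6.50 to 18.0 CPM, with a difference of -1.51 ± 0.48, and the lowest mtDNA B6 library lay inside the mtDNA NZB range. The lipid genes Soat1, which esterifies cholesterol, and Osbpl3, an oxysterol-binding protein, differed by -0.54 ± 0.18 and -0.45 ± 0.14, and Als2cl by -0.36 ± 0.11. None of these had an adjusted p of 0.05 or less.

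Among the genes with the smallest unadjusted p higher in mtDNA NZB, Cdk5rap1, which modifies mitochondrial transfer RNAs, ran from 9.05 to 13.5 CPM and from 13.3 to 27.7 CPM, with a difference of 0.65 ± 0.19. Ccr7, the lymph node homing receptor of naive T cells (chromosome 11, 99035022 to 99045911), ran from 347 to 524 CPM and from 497 to 794 CPM, with a difference of 0.36 ± 0.12. For Cdk5rap1 and Ccr7 the ranges overlapped. Cebpzos, Pex39, Lrpap1, Tmem120a and Tbcb followed with differences of 0.46, 0.37, 0.29, 0.32 and 0.27. The last 1000 bases of Cebpzos overlap Cebpz and those of Tmem120a overlap Por, so their counts may hold reads of the neighbour. Sirt5, the mitochondrial desuccinylase, was low at 4.07 to 6.27 CPM in mtDNA B6 and 8.32 to 11.96 CPM in mtDNA NZB, with a difference of 0.73 ± 0.17, and lay below the level set for naming.

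Without replicate 6 the order of genes shifted. The genes with the smallest p then included Orai1, the pore of the store-operated calcium channel, which ran from 57.6 to 85.0 CPM in mtDNA B6 and from 55.6 to 124 CPM in mtDNA NZB. Its lowest mtDNA NZB library was replicate 6, and its difference was 0.41 ± 0.15 with 12 libraries and 0.54 with 11. Tomm34, Cpsf4, Upf1, Prmt1, Itpripl1 and Cirbp were likewise higher by 0.42 to 0.71 with 11 libraries and by 0.30 to 0.52 with 12. Lower by 0.42 to 0.89 with 11 libraries were Kidins220, Wdr26, Klf7, Xdh and Nck1, an adaptor that links the T cell receptor to actin, and by 0.30 to 0.60 with 12. The pseudogene Gm6136 (chromosome 1) is named after its values were seen. It had 31, 150, 134, 50, 15 and 27 counts in mtDNA NZB replicates 1 to 6 and 12 to 26 in mtDNA B6, so replicates 5 and 6 were at the mtDNA B6 level and the other 4 were above it in CPM. Resting libraries of both haplotypes also held high values of Gm6136, up to 56.1 CPM in mtDNA B6, while the highest in mtDNA NZB, 58.4 CPM, rested on 3 counts.

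**Figure D4:**
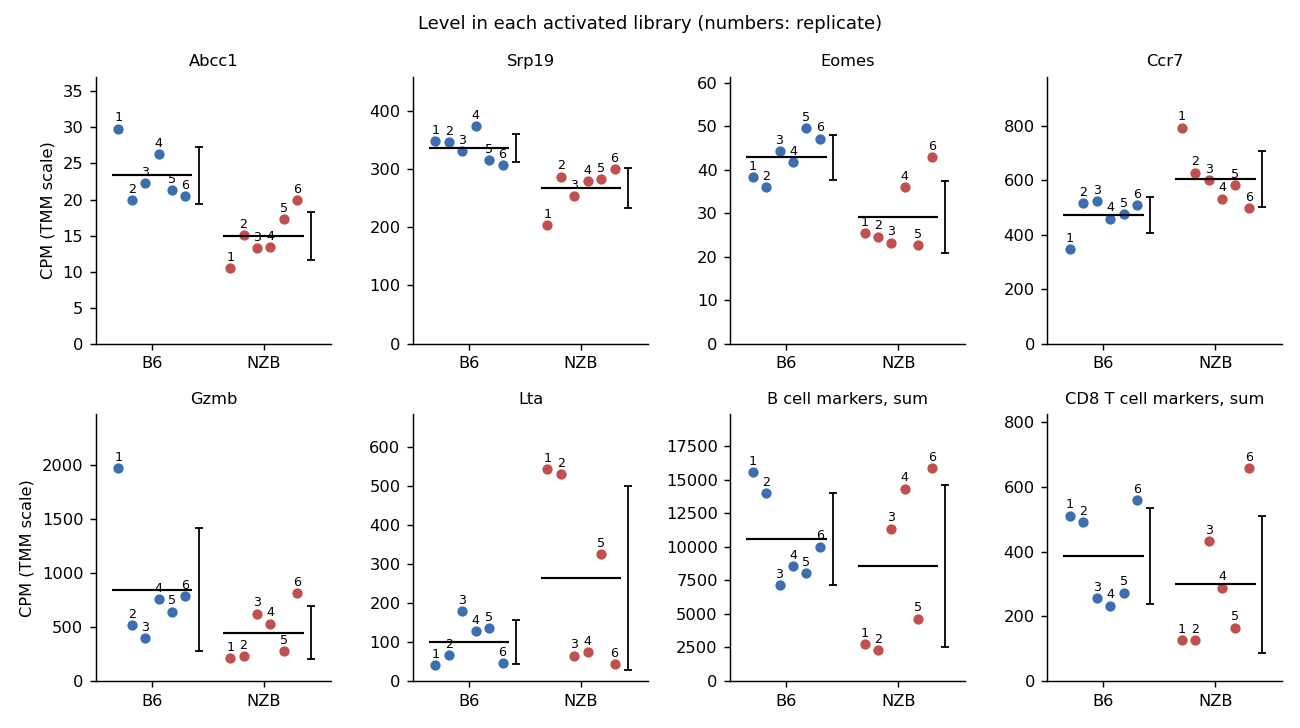
Levels in CPM in each activated library (replicate number beside the point) for 6 genes and for the summed B cell and CD8 T cell markers; the line is the mean and the bar the SD of 6 libraries. Abcc1 and Srp19 do not overlap between the haplotypes, and for Lta and both marker sums the mtDNA NZB libraries split into replicates 1, 2 and 5 and replicates 3, 4 and 6.

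Functional lists were described by their median difference, beside the median of all genes tested, which was -0.01 with both 12 and 11 libraries. Of all genes tested, 4592 of 9728 had a difference above 0 with 12 libraries and 4765 of 9760 with 11. The signs of many of these medians depended on the setting. Those of complexes II to V, glycolysis, fatty acid oxidation and the antioxidant genes changed with library totals as the scaling. Larger medians changed sign too. That of the list of HIF1A, its regulators and its targets changed to 0.01 and that of the MYC and MAX network to 0.07 after thinning. That of the chemokines changed to 0.01 with the range of reads per UMI as a term. The median of the 5 mtDNA-encoded genes tested, 0.20, was -0.40 with that term and -0.16 without mtDNA NZB replicate 1. Of 44 lists, 39 had a median within 0.1 of 0 on the log2 scale and 43 within 0.2, and no list held a called gene. With 11 libraries the counts were 30 and 41. For each of the 44 lists the mean level of the libraries overlapped between the haplotypes.

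Respiratory chain genes made in the nucleus were at much the same level in both haplotypes. Of 51 complex I subunits and assembly factors tested, 3 were higher at an unadjusted p under 0.05 and 0 lower, 34 had a difference above 0, and the median was 0.07. The 2 with the highest level, Ndufa3 and Ndufa13, differed by 0.07 ± 0.08 and 0.07 ± 0.09. Ndufaf8, an assembly factor, ran from 87.2 to 123 CPM in mtDNA B6 and from 113 to 136 CPM in mtDNA NZB (difference 0.24 ± 0.09). Ndufb8 differed by 0.30 ± 0.13, and shares its last 1000 bases with another gene on the same strand. For 50 of the 51 genes the 95% interval lay within 2-fold. Of 72 nuclear genes of complexes II to V, 2 were higher (Uqcrq of complex III by 0.22 ± 0.10 and the assembly factor Coa7 by 0.21 ± 0.10), 0 were lower, the median was 0.02, and 71 had an interval within 2-fold. The ATP synthase genes Atp5mc3 and Atp5f1b, the most abundant of them, differed by 0.09 ± 0.10 and 0.10 ± 0.10. The share of all genes higher at this p was 1.67% with 12 libraries and 5.74% with 11. With 11 libraries the medians of the 2 lists were 0.10 and 0.06, with 6 and 8 genes higher, which is 11.8% and 11.1% of them.

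Genes of mitochondrial translation and import had medians slightly above that of all genes. Of 78 mitochondrial ribosome genes 63 had a difference above 0, the median was 0.07, and 5 were higher and 0 lower at an unadjusted p under 0.05. Of all genes, 1.67% were higher and 1.83% lower at that p with 12 libraries. Mrps24 ran from 181 to 213 CPM in mtDNA B6 and from 197 to 275 CPM in mtDNA NZB (difference 0.23 ± 0.09), and the most abundant member, Mrpl54, differed by -0.00 ± 0.09. Of 36 import genes 3 were higher and 0 lower, with a median of 0.09, among them Mtx1 by 0.34 ± 0.13 and the inner membrane channel gene Timm17b by 0.23 ± 0.09. With 11 libraries the medians were 0.13 and 0.11, with 11 of 78 and 6 of 37 genes higher, beside 5.74% of all genes. Genes of mtDNA replication and transcription had a median of 0.01 over 33 genes, with 1 lower gene, the RNA exonuclease Pnpt1, at -0.67 ± 0.31 and under 12 CPM in all libraries. Fusion, fission and mitophagy genes had a median of -0.06 over 32 genes, with the fission GTPase Dnm1l at -0.27 ± 0.12 and the cristae gene Chchd6 at 0.36 ± 0.16. Medians of the calcium uniporter, coenzyme Q synthesis and mitochondrial chaperone lists were 0.03, -0.00 and 0.01 over 11 genes each, and 0 genes of these 3 lists had an unadjusted p under 0.05. The coenzyme Q median was above 0 with median-of-ratios scaling and that of the chaperones below 0 with library totals.

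Lists of fuel metabolism had small medians. Glycolysis and glucose uptake had 0 of 24 genes at an unadjusted p under 0.05 and a median of 0.01. The interval lay within 2-fold for 21 of the 24 genes and within 1.5-fold for 16. With 11 libraries these were 20 and 12, so a difference of 1.5-fold was not excluded for many of them. Pkm, the last kinase of glycolysis, ran from 2210 to 3411 CPM in mtDNA B6 and from 2225 to 3282 CPM in mtDNA NZB, with a difference of -0.01 ± 0.13, and Ldha, which makes lactate, differed by 0.06 ± 0.13. The TCA cycle list had a median of -0.01 over 34 genes, with Mdh1 at -0.09 ± 0.11 and Mdh2 at 0.14 ± 0.09. Fatty acid oxidation had 0 of 24 genes at an unadjusted p under 0.05, a median of 0.01 and an interval within 2-fold for all 24 genes tested. Of 18 fatty acid synthesis and desaturation genes 2 were lower at this p, beside 1.83% of all genes. These were the desaturase Fads2 by -0.75 ± 0.31 and the elongase Elovl6 by -0.49 ± 0.20, while Fasn differed by 0.06 ± 0.13. Cholesterol synthesis had a median of 0.00 over 23 genes, with Fdps at 0.23 ± 0.09. Purine and pyrimidine synthesis had the highest median of the lists of more than 5 genes, 0.12 over 27 genes with 21 above 0, but 0 at an unadjusted p under 0.05. The median was 0.22 with 11 libraries, and 6 were higher and 0 lower, beside 5.74% of all genes higher. Atic, a late enzyme of purine synthesis, ran from 87.9 to 135 CPM and from 78.0 to 191 CPM, with a difference of 0.38 ± 0.18 and 0.53 without replicate 6. Serine and folate one-carbon metabolism had a median of 0.08 over 21 genes with 19 above 0, and Mthfd2, its mitochondrial dehydrogenase, differed by 0.18 ± 0.13. Amino acid transporters had a median of -0.06 over 13 genes.

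Stress and redox lists, other than that of HIF1A, its regulators and its targets, lay near 0. Antioxidant genes had a median of 0.01 over 46 genes, with Txn1 and Sod1 differing by -0.02 ± 0.14 and 0.06 ± 0.13. The sulfiredoxin gene Srxn1 was the one antioxidant gene at an unadjusted p under 0.05, at 4.51 to 21.2 CPM in mtDNA B6 and 1.49 to 9.29 CPM in mtDNA NZB, with a difference of -1.03 ± 0.38. The iron list had a median of 0.07 over 28 genes, with the ferritin light chain gene Ftl1 at -0.38 ± 0.15. The integrated stress response had a median of -0.04 over 29 genes. Its central factor Atf4 differed by -0.06 ± 0.09, and Cebpg, which pairs with it, by -0.36 ± 0.13. Heat shock proteins and chaperonins had 0 of 36 genes at an unadjusted p under 0.05 and a median of -0.02. The list of HIF1A, its regulators and its targets had 0 of 28 genes at that p and a median of -0.10, with 8 above 0. The median of this HIF1A list was -0.18 with 11 libraries, with 6 above 0. At that p, 2 were then lower and 0 higher, beside 4.54% and 5.74% of all genes.

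Growth and division lists had medians between -0.08 and 0.09 with 12 libraries, and several moved up without replicate 6. DNA replication had 41 of 56 genes above 0, 0 at an unadjusted p under 0.05 and a median of 0.09, and with 11 libraries 50 above 0, 9 higher and a median of 0.18. Mitosis genes had 47 of 72 above 0, 1 higher and a median of 0.06, and with 11 libraries 56 above 0, 11 higher and a median of 0.15. Of all genes, 5.74% were higher at this p with 11 libraries. Without mtDNA NZB replicate 5 the medians of the DNA replication and mitosis lists were 0.01 and 0.00. The centromeric histone gene Cenpa ran from 322 to 403 CPM in mtDNA B6 and from 299 to 490 CPM in mtDNA NZB, with a difference of 0.26 ± 0.11. Top2a and Pcna differed by 0.09 ± 0.18 and 0.13 ± 0.17. The mean level of the DNA replication list was lowest in mtDNA NZB replicate 6 and highest in mtDNA NZB replicate 5, so this haplotype held both ends of the range. Relative to the mean of all 12 libraries, that level was 0.19, 0.27 and 0.37 on the log2 scale in mtDNA NZB replicates 1, 2 and 5 and -0.25, -0.04 and -0.34 in replicates 3, 4 and 6. The mitosis list was at 0.25, 0.27 and 0.27 and at -0.26, 0.03 and -0.41 in the same order, and the purine and pyrimidine list at 0.09, 0.25 and 0.29 and at -0.07, -0.08 and -0.21. Replicates 1, 2 and 5 were also those with the lowest summed B cell and CD8 T cell markers, and the part of these other cells in the 3 lists was not tested. Cdk4 differed by 0.23 ± 0.10 and Ccnd3 by 0.34 ± 0.20 in the G1 list, whose median was 0.03 over 26 genes. The proteasome had 38 of 47 genes above 0, 2 higher and a median of 0.07, and with 11 libraries 11 higher, 1 lower and a median of 0.13. Cytosolic ribosome, nucleolar and tRNA synthetase lists had medians of 0.04, 0.04 and 0.03. The mTOR list had a median of -0.01 over 53 genes, with Rps6kb2, an S6 kinase, at -0.30 ± 0.12, and the MYC and MAX network -0.08 over 11 genes, with Myc at 0.34 ± 0.20.

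**Figure D5:**
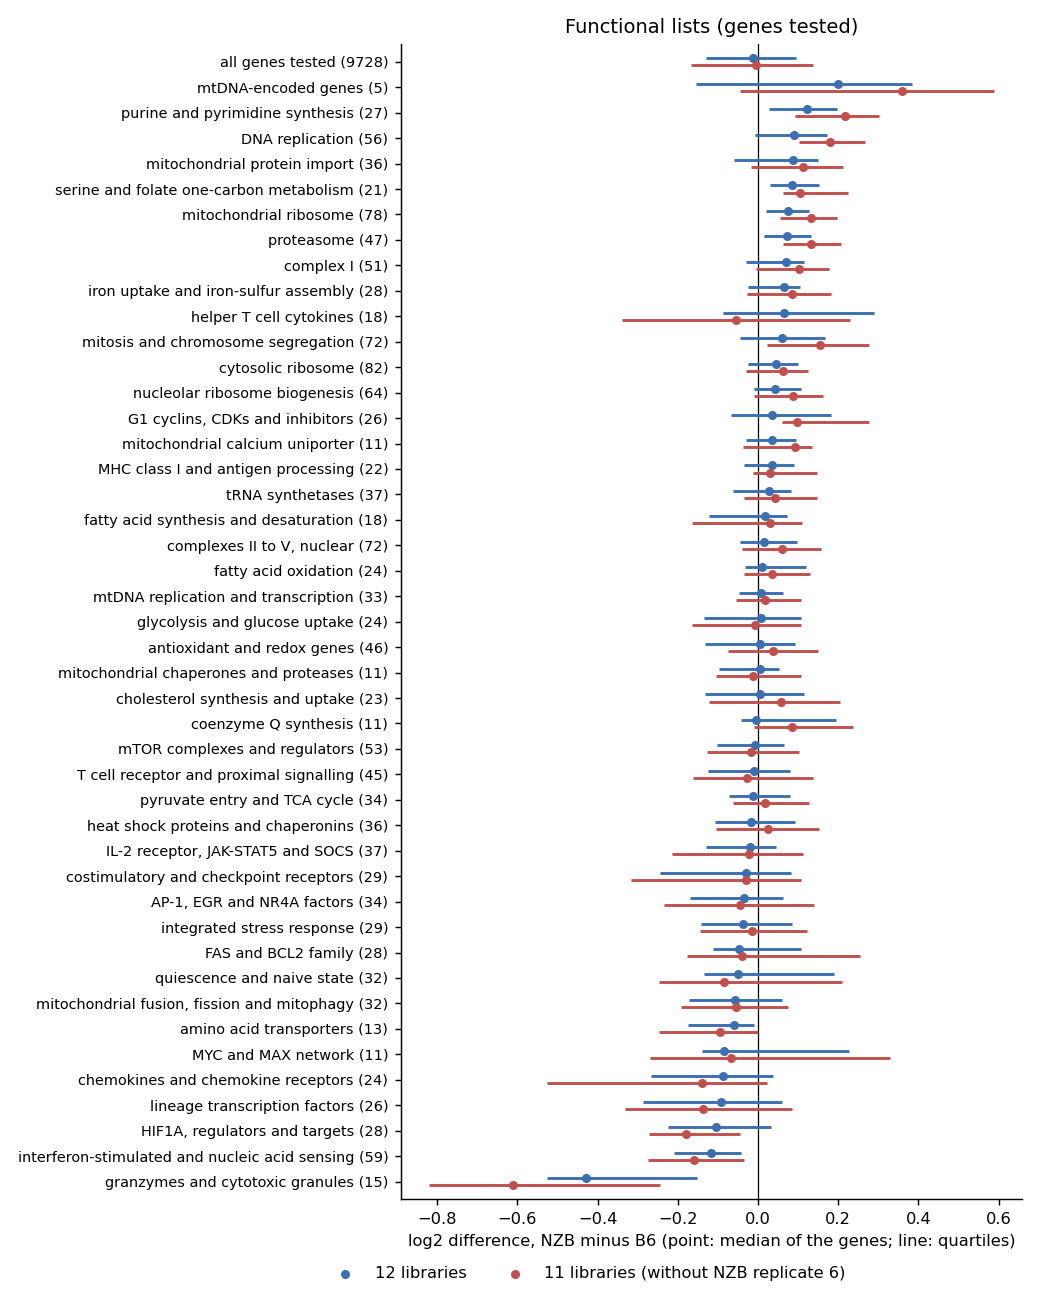
Median (point) and quartiles (line) of the log2 difference, mtDNA NZB minus mtDNA B6, over the tested genes of each functional list, in blue for 12 libraries and in red for 11 libraries; numbers in parentheses are genes tested with 12 libraries. All medians lie between -0.43 and 0.20 with 12 libraries, the granzyme list at the lower end and the mtDNA-encoded genes at the upper, a median that was -0.16 without mtDNA NZB replicate 1.

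Lists of T cell signalling genes also had small medians. Of 45 genes of the T cell receptor and its proximal signalling, 1 was higher and 3 lower at an unadjusted p under 0.05. Of all genes, 3.5% were so in either direction. The median was -0.01, and all 45 had an interval within 2-fold. With 11 libraries 4 were higher and 6 lower, beside 10.3% of all genes in either direction, the median was -0.03, and 44 had an interval within 2-fold. Trbc2 and Trac, the constant regions of the receptor chains, differed by 0.22 ± 0.10 and 0.09 ± 0.10. Nck1 was lower by -0.48 ± 0.16, and Ubash3b, a phosphatase that dampens receptor signalling, ran from 21.2 to 33.4 CPM and from 8.97 to 26.8 CPM, with a difference of -0.54 ± 0.20. The IL-2 receptor and JAK-STAT5 list had a median of -0.02 over 37 genes, with Jak2 at -0.36 ± 0.13 and Il2rg at -0.03 ± 0.08. Costimulatory and checkpoint receptors had a median of -0.03 over 29 genes, with Tnfrsf18, which encodes GITR, at 0.27 ± 0.16 and Tox at 0.60 ± 0.26. AP-1, EGR and NR4A factors had 0 of 34 genes at an unadjusted p under 0.05 and a median of -0.03. Lineage factors and the naive state list had medians of -0.09 and -0.05, with Lef1 at 0.39 ± 0.16 and Tcf7 at -0.09 ± 0.15. The FAS and BCL2 list had a median of -0.05 over 28 genes, with Bax at 0.27 ± 0.14.

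Among the cytokine genes, Lta and Tnf followed a split within mtDNA NZB that the mean level of the list did not. Lta, which encodes lymphotoxin alpha, ran from 39.6 to 179 CPM in mtDNA B6. In mtDNA NZB it was at 544, 530 and 325 CPM in replicates 1, 2 and 5 and at 65.1, 74.9 and 43.5 CPM in replicates 3, 4 and 6, so 3 libraries stood above all of mtDNA B6 and 3 within its range. Its difference was 1.37 ± 0.59, and 1.62 without replicate 6. Tnf had the same 3 libraries highest, at 59.8, 41.3 and 36.8 CPM against 12.9 to 24.02 CPM in mtDNA B6, with a difference of 0.65 ± 0.28. Over the 18 cytokine genes tested the median was 0.06 with 12 libraries and -0.05 with 11, and -0.01 before UMI deduplication, and the interval lay within 2-fold for 8. The more abundant Ltb and Mif differed by 0.18 ± 0.10 and 0.16 ± 0.13. The replicates with high Lta and Tnf were those with the lowest summed B cell and CD8 markers, and the part of these other cells in the values was not tested.

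Genes of cytotoxic granules had the lowest median of the lists, -0.43 over 15 genes with 0 above 0. At an unadjusted p under 0.05, 2 were lower, beside 1.83% of all genes. The median was -0.61 with 11 libraries, and 4 were lower, beside 4.54% of all genes. Without mtDNA B6 replicate 1 the median was -0.17. Gzmb, which encodes granzyme B, ran from 394 to 1965 CPM in mtDNA B6 (median 699) and from 214 to 810 CPM in mtDNA NZB (median 402). The ranges overlapped, with mtDNA B6 replicate 1 by far the highest and mtDNA NZB replicates 1, 2 and 5 the lowest. Its difference was -0.90 ± 0.39, and -1.15 without replicate 6. Cst7, an inhibitor of granule cathepsins, differed by -0.52 ± 0.24 and the granule proteoglycan gene Srgn by -0.20 ± 0.17. The mean log2 level of the list, relative to the mean of all 12 libraries, was -1.07, -0.74 and -0.71 in mtDNA NZB replicates 1, 2 and 5 and 0.04 to 0.51 in replicates 3, 4 and 6, against -0.13 to 1.18 in mtDNA B6. Summed CD8 T cell markers were lowest in the same 3 replicates, at 125 to 165 CPM, and their part in the granzyme values was not tested. Cd8a and Cd8b1 themselves differed by -0.32 ± 0.41 and -0.22 ± 0.42.

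Interferon-stimulated and nucleic acid sensing genes had a median of -0.12, with 10 of 59 genes above 0. At an unadjusted p under 0.05, 1 was higher and 1 lower, beside 1.67% and 1.83% of all genes. The abundant members Samhd1 and Ifi27l2a differed by -0.04 ± 0.11 and -0.05 ± 0.16, the RNA-sensing kinase gene Eif2ak2 by -0.39 ± 0.17, and the nucleic acid sensor Zbp1 by 0.16 ± 0.07. With 11 libraries the median was -0.16, with 2 higher and 6 lower, beside 5.74% and 4.54% of all genes. MHC class I and antigen processing genes had a median of 0.03 and 0 of 22 genes at an unadjusted p under 0.05, with H2-K1 at 2943 to 3526 CPM in mtDNA B6 and 2949 to 3819 CPM in mtDNA NZB. Chemokines and their receptors had a median of -0.09 over 24 genes, with the chemokine gene Xcl1 at -0.80 ± 0.44.

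Genes that the study names for conventional T cells were chosen by it on these samples and are no independent evidence of a direction. The study named them for changes on activation within a haplotype, some up and some down. A single median over them therefore speaks neither for nor against the study. Of 42 listed, 37 were tested, 23 had a difference above 0, and the median was 0.04, or 0.09 with 11 libraries. At an unadjusted p under 0.05, 2 were higher and 1 lower, beside 1.67% and 1.83% of all genes. The smallest p-values were those of Fads2 and Tnf, given above, Mrps11 of the mitochondrial ribosome, entered for a symbol that the study prints in a shorter form, at 0.25 ± 0.11, and Glrx, which encodes glutaredoxin, at -0.41 ± 0.20. Of the 37 genes, 32 had a 95% interval within 2-fold.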

How the data were processed

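The authors deposited counts of UMIs per gene for all 24 libraries, made from 3′ bulk MARS-seq reads of poly-A RNA. The submitters' processing notes name cutadapt, STAR, HTSeq and GRCm39, and per the methods genes were counted over the last 1000 bases and UMI counts were corrected for saturation. Reads of both haplotypes were aligned to a reference with C57BL/6J mtDNA, and the effect of mismatches in NZB reads was not tested. A second deposited table of larger counts was taken to be reads before UMI deduplication and served as an alternative. A single column of the tables (1 in all) could be tied to no sample and stayed out. The labels and the methods differ on the RNA kit and input.

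Genes were filtered with filterByExpr, scaled by trimmed mean of M values and tested with edgeR 4.0.16 (quasi-likelihood, Benjamini-Hochberg, adjusted p cutoff 0.05) in R 4.3.3, on the 12 activated libraries and on 11 without mtDNA NZB replicate 6. The study used DESeq2, which was run as an alternative (1.42.0), with limma 3.58.1 (trend and voom with quality weights). Other alternatives were the fit of all 4 groups, robust edgeR, other scalings and filters, counts before deduplication, thinning to the smallest total, reads per UMI as a term or a subset, the replicate block and leaving out each library. Python 3.11.15 made summaries. Genes outside the annotation held 0.0272% of UMI counts. Scripts were tested on simulated data.

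Members and lists were chosen with earlier results of these data known. The text names tested mtDNA-encoded genes, in each fit the 8 higher and 8 lower genes with the smallest p at 10 CPM or more in a group, and for each list the 2 most abundant genes and the 2 with the smallest p, of which the text gives some, and 3 of these genes are not reported here. Of 219 genes so named, 44 have their last 1000 bases overlapping another protein-coding gene. Replicate numbers shared between haplotypes did not pair the libraries.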

Additional observations from a re-analysis of the deposited data

Results flagged for a closer look

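Of 92 groups of 6 libraries examined, 18 held a library set apart from the other 5 by a large part of the group's range (Dixon's test). Chance gives this in about 1 of 20 independent groups picked without regard to their values. Many groups here were genes picked by their p in these same libraries, with or without mtDNA NZB replicate 6. The mtDNA-encoded genes flagged in mtDNA NZB share its replicate 1, so the groups are not independent. That rate therefore does not apply, and whether the 18 are an excess cannot be judged. In mtDNA NZB replicate 1, the smallest library, the mtDNA-encoded genes took 0.0260% of counts against at most 0.0119% in the other 5, mt-Nd4 was at 25.4 CPM, mt-Nd1 at 23.9 CPM, mt-Rnr1 at 31.4 CPM and mt-Rnr2 at 56.8 CPM, each above the others of its haplotype. In mtDNA NZB replicate 6, Tomm34 (47.4 CPM), Cpsf4 (27.8 CPM) and Cirbp (57.3 CPM) were lowest and Kidins220 (48.0 CPM) was highest of the haplotype. In mtDNA NZB replicate 3, Cebpzos was at 45.5 CPM against at most 30.2 CPM.

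In mtDNA B6 replicate 1, summed erythroid markers were 410 CPM, platelet markers 773 CPM, Kidins220 45.3 CPM and Ccr7, as the lowest, 347 CPM. In mtDNA B6 replicate 5 the reads per UMI were 2.13 and the summed monocyte markers 169 CPM. Replicate 3 of mtDNA B6 had the highest Upf1 at 120 CPM and replicate 6 the highest mt-Nd4 at 28.8 CPM.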

How the results depend on the processing

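With 12 libraries, 1 gene was called with voom weights, with no filter and within the lowest range of reads per UMI, and 0 to 1 when a library was left out, in each case mt-Nd4 (log2 difference -2.63, -2.45, -3.40 and -3.04). The library whose removal gave the call was mtDNA NZB replicate 1. With 11 libraries the calls were 1 with DESeq2 (Gm6136), 2 with no filter (Gm6136 and mt-Nd4), 3 within the lowest range of reads per UMI (mt-Nd4, Tpt1-ps3 and Gm6278, with 1 mtDNA NZB library assumed to vary like mtDNA B6) and 0 to 1 when a further library was left out (mt-Nd4 without mtDNA NZB replicate 1, Gm6136 without replicate 5). The median absolute difference of 0.11 was 0.22 with DESeq2, 0.27 with no filter and 0.21 after thinning, and 0.10 to 0.15 when a library was left out. The share of genes with an interval within 2-fold, 91.2%, was 85.5% in the fit of all 4 groups, 40.4% with DESeq2, 42.1% with no filter, 95.8% at 10 CPM or more, 79.4% before deduplication, 52.4% after thinning, 76.5% within the lowest range of reads per UMI, and 86.8% to 91.05% when a library was left out. DESeq2 and the unfiltered fit covered 22102 genes, more of them low.

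Counts at an unadjusted p under 0.05 moved more than calls, from 340 to 90 with the range of reads per UMI as a term, 168 within its lowest range, 211 after thinning, 521 with voom, and, leaving out a library, to 198 without mtDNA B6 replicate 1, 212 and 210 without mtDNA NZB replicates 2 and 5, and 531 and 1003 without replicates 4 and 6. The 1003 of the 11 libraries became 471 with the range as a term, 1535 within it, 304 after thinning, 1629 with voom, and 1665, 654 and 616 without mtDNA NZB replicates 4 and 5 and mtDNA B6 replicate 1. With the replicate block 0 genes were called in either fit, 302 and 572 had an unadjusted p under 0.05, and 89.3% of intervals lay within 2-fold. Correlations of same-numbered libraries ran from -0.21 to 0.21, so the numbers do not pair them. The cause of these shifts was not tested.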
